A study of Mus musculus with 9 samples.

Results

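The genes of calmodulin and of calcium release, entry and readout in the egg were followed across 9 libraries of mouse oocytes at metaphase II, where the mature egg rests until fertilisation. The set held 9 genes of 22526 in the deposited table, found by their symbols: Calm2, Calm3, Pcp4l1, Itpr1, Atp2a2, Stim1, Orai1, Trpm7 and Camk2g. Calm2 and Pcp4l1 entered the set because their mRNA had been noticed to be high in the aged group, and the other 7 entered by function. Contrasts of Calm2 and Pcp4l1 with the aged group are therefore given as values without a test. The mice were of the outbred ICR strain, and 3 libraries each are labelled young, aged and NMN supplementation. NMN is nicotinamide mononucleotide, from which cells make NAD. The labels give no ages, no dose or route of NMN and no age for the NMN mice. They name no separate animals behind the libraries, so a p-value here reflects library-to-library spread alone, and that spread may be technical.

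At fertilisation the egg releases calcium from the endoplasmic reticulum in repeated waves. The inositol trisphosphate (IP3) receptor, encoded in part by Itpr1, opens the store, and the SERCA pump encoded by Atp2a2 refills it. Stim1 senses an emptied store and opens the plasma membrane channel Orai1, and Trpm7 is a further channel for divalent cations. Calmodulin binds the released calcium and switches on the kinase encoded by Camk2g, which sets off the exit from metaphase arrest. Pcp4l1 resembles Pcp4, a small calmodulin-binding protein that alters how calmodulin takes up and releases calcium.

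Calm2 and Calm3 encode the same protein, calmodulin, from mRNAs of different sequence. Their coding sequences, taken from the GENCODE M21 transcripts (build GRCm38), are 450 nt long and 82.7% identical, with 78 differences, 74 of them at the third codon position. The first 60 coding bases are shown since they let a reader see how reads can tell these 2 genes apart, and capitals mark the 8 positions at which they differ.
Calm2: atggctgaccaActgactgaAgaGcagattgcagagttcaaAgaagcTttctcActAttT
Calm3: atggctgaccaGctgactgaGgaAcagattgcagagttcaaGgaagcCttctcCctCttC
Calm2 also has annotated processed pseudogenes, of which Gm7308 (96.9% identical over 447 nt) is listed in the table, at 0 to 0.672 FPKM. Reads from such copies could have been shared with Calm2, so its value carries that uncertainty.

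For Pcp4l1, the gene with the largest ratio between its highest and lowest library, the RefSeq promoter is shown, 300 bases around the transcript start (GRCm38.p6, chr1:171196219-171196518, minus strand). Of the 9 genes, 5 had an entry in this table. Capitals mark CCAAT on the opposite strand (first) and TATAAA (second), the letters of a CCAAT box and a TATA box, and TATAAA begins at the annotated start itself.
Pcp4l1: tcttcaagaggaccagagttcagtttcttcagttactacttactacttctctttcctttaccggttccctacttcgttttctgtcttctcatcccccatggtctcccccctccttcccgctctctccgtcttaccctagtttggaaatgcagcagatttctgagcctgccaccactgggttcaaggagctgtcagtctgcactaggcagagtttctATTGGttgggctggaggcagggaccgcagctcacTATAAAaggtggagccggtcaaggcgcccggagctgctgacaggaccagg
On either strand, TATAAA was found in 13.62% and CCAAT in 37.41% of 32851 promoters of this length. GGGCGG, TGACGTCA and CACGTG were also searched, on both strands, and were not found in this window.

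Depth was 16.28 to 19.25 M reads per library, estimated from the steps between low values. At that depth 3 reads on a 2 kb transcript correspond to 0.0779 to 0.0921 FPKM (fragments per kilobase of transcript, scaled to the mapped total), a floor for counting error only. The 14 oocyte markers, among them Gdf9 and Bmp15, were above 0 in every library. They summed to 12820 to 17040 FPKM in young, 17630 to 20340 in aged and 15370 to 19760 in NMN libraries. By this sum each aged library lay above each young one, as also by Mos and Zp3, but not by every marker. Gdf9 had means of 2731 in young and 2738 FPKM in aged libraries. Bmp15 in aged replicate 2 (582) lay below young replicates 2 and 3 (934 and 879). H1foo, the highest of the list, was at 7650 FPKM in young replicate 1, above aged replicates 1 and 3 (7389 and 7225). Aged replicate 2 stood apart in cumulus and granulosa markers. Of the 14 in the table (of 18 listed) it held all 14 above 0, against 6 to 8 in the other 8 libraries, with a sum of 25.8 against 6.27 to 10.35 FPKM. Ptx3, Inha, Fst and Tnfaip6 were at 6.37, 3.17, 2.31 and 1.08 FPKM there and at 0 in the other libraries. Not all of the list went that way. Cyp19a1 was lowest in that library, at 3.03 FPKM against up to 6.21, and Kitl, at 0.759, was second lowest. Aged replicates 1 and 3 each held 7 of the 14 above 0, with Kitl at 3.25 and 1.09, Cyp19a1 at 3.26 and 3.66 and Nr5a2 at 1.47 and 1.16 FPKM. Blood and immune markers (3 of 8 listed) summed to 0.382 to 2.52 FPKM in all libraries, and the 10 handling stress genes to 57.5 to 72.3 in young and 56.5 to 73.4 in NMN libraries. In aged replicates 1 to 3 they summed to 125.7, 52.9 and 105.7 FPKM, so that aged replicates 1 and 3 lay above all other libraries. Dusp1 made up 114.34 and 96.4 FPKM of these 2 sums, and other genes of that list did not follow it. Jun, Junb and Ier2 were highest in aged replicate 2, at 1.85, 2.70 and 3.31 FPKM. Fos was at 0, 0.418 and 0.408 FPKM in aged replicates 1 to 3, below all young libraries (1.35, 0.856 and 1.77). The part of any of these lists in the results was not tested. Contrasts of the tested genes with the aged group are also given without aged replicate 2. The number of oocytes in a library is not given, so fewer cells of a type and less RNA per cell cannot be told apart.

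**Figure D1:**
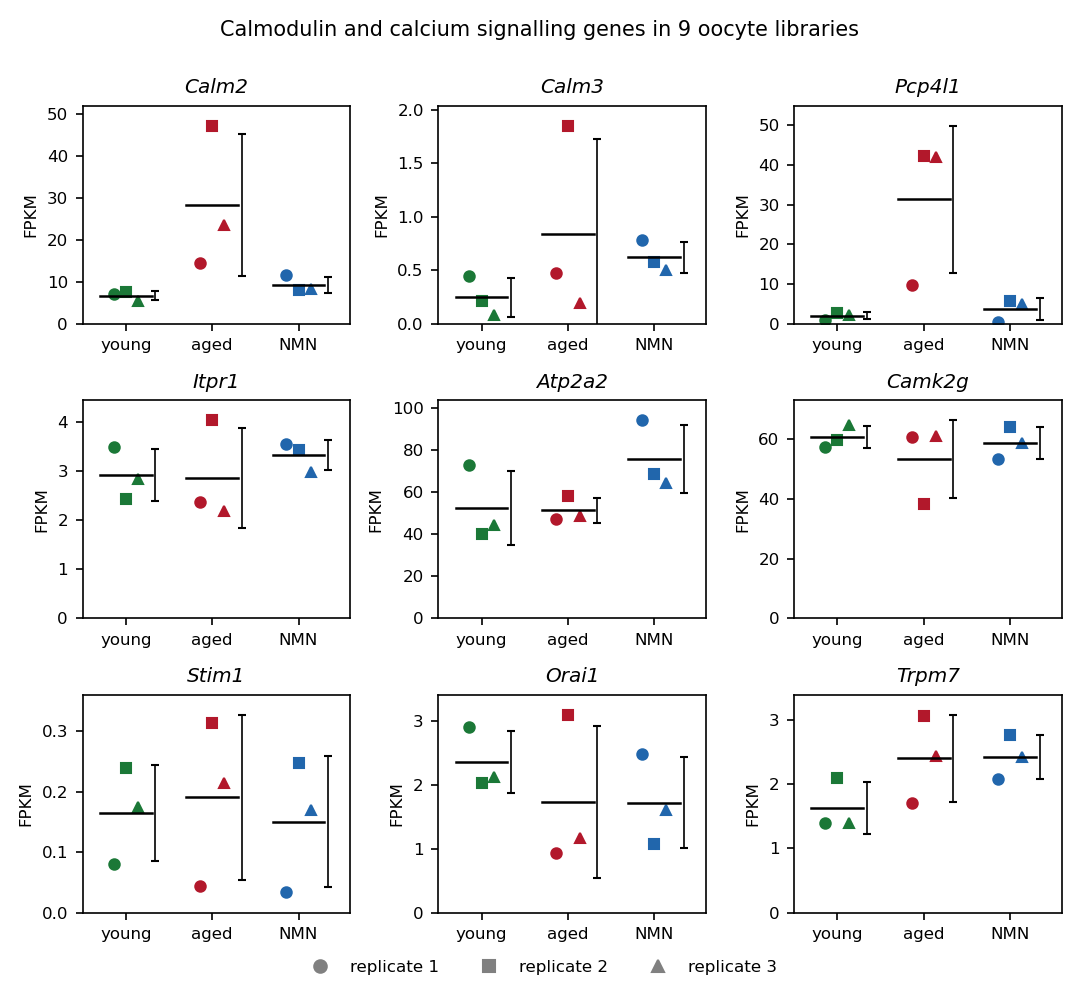
FPKM of the 9 genes (one panel each, linear axis from 0) in the young, aged and NMN libraries. Symbols mark replicates 1, 2 and 3, horizontal lines the group means and bars the SD (n = 3, cut at 0). Calm2 and Pcp4l1 are highest in the aged libraries, and aged replicate 2 stands apart from aged replicates 1 and 3 for Orai1, Itpr1 and Camk2g.

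Among the 9 genes the levels, which FPKM puts on a scale per length, spanned from the SERCA pump to the store sensor. Atp2a2 (mean over the 9 libraries 59.8 FPKM) and Camk2g (57.6) led and did not differ beyond their spread, with Atp2a2 higher in 5 of 9 libraries. Calm2 (14.8) and Pcp4l1 (12.3) followed and overlapped widely, with ranges of 5.52 to 47.3 and 0.415 to 42.2 FPKM. Itpr1 (3.04), Trpm7 (2.16) and Orai1 (1.94) lay close together, and Trpm7 exceeded Orai1 in 5 of 9 libraries. Calm3 (0.57) and Stim1 (0.169) were lowest. These last 2 did not reach 1 FPKM in at least 3 libraries, so 7 of the 9 genes were tested.

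Calm2, the more abundant of the calmodulin genes in the set, was at 7.09, 7.49 and 5.52 FPKM in young replicates 1 to 3. Aged replicates 1 to 3 held 14.5, 47.3 and 23.5 FPKM, and NMN replicates 11.55, 7.99 and 8.29. All 3 aged libraries thus lay above all 6 others, and aged replicate 2 was the highest. Ranges of the aged and young libraries were apart for 23.8% of all tested genes, from which nothing is read here, as Calm2 was noticed in this contrast. The aged mean was 28.4 ± 17.0 FPKM against 6.70 ± 1.04 in young and 9.27 ± 1.98 with NMN (SD, n = 3), a ratio of means of 4.245 between aged and young. On the log2(FPKM + 1) scale the aged group was higher than the young by 1.77, and the NMN group was lower than the aged by 1.41. Without aged replicate 2 these differences were 1.36 and -0.99.

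The NMN libraries lay above the young ones for Calm2 without overlap. In that comparison ranges were apart, in either direction, for 16.6% of all tested genes. The difference of 0.36 ± 0.33 (SE, log2 scale, 95% confidence interval -0.37 to 1.09) was within the spread used by limma (adjusted p = 0.793). This test shares its young libraries with the contrast for which Calm2 was noticed. Its spread also comes from all 9 libraries, the widely spread aged ones included. With only the 2 groups compared, the limma adjusted p was 0.537.

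Calm3 mRNA was scarce in every group. It was at 0.444, 0.214 and 0.0857 FPKM in young, 0.476, 1.85 and 0.198 in aged and 0.785, 0.574 and 0.499 in NMN replicates 1 to 3. Only aged replicate 2 passed 1 FPKM, and Calm3 was below Calm2 in 9 of 9 libraries. The young and aged ranges overlapped. The NMN libraries lay above the young ones, where ranges were apart for 16.6% of all tested genes in either direction. Calm3 was below the filter for testing. Its lowest young value, 0.0857 FPKM, lay near the level of 3 reads on a 2 kb transcript, so no difference is read from this.

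Pcp4l1, the relative of Pcp4, was highest in the aged libraries. It was at 1.06, 2.77 and 2.14 FPKM in young and 9.88, 42.2 and 42.0 FPKM in aged replicates 1 to 3. The NMN replicates held 0.415, 5.70 and 4.99 FPKM, so that the aged libraries lay above all others while young and NMN libraries overlapped. The means were 1.99 ± 0.86, 31.4 ± 18.6 and 3.70 ± 2.87 FPKM in young, aged and NMN libraries (SD, n = 3), with a ratio of 15.75 between aged and young. The log2 difference was 3.22 between aged and young and -2.85 between NMN and aged, and 2.91 and -2.53 without aged replicate 2. Unlike Calm2, Pcp4l1 was as high in aged replicate 3 as in aged replicate 2. NMN and young libraries differed by 0.37 ± 0.64 (SE, log2 scale, 95% interval -1.05 to 1.80, limma adjusted p = 0.885). As for Calm2, this test shares the young libraries of the contrast in which the gene was noticed. Its spread likewise comes from all 9 libraries, aged ones included. With only the 2 groups compared, the limma adjusted p was 0.798. NMN replicate 1 lay below all young libraries and NMN replicates 2 and 3 above them.

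For the 5 genes chosen by function and tested, no call was made in aged against young oocytes, at an adjusted p under 0.05 by limma (0 also at an unadjusted p under 0.05). Of all 9175 tested genes, 2.2% were called in that comparison and 18.2% had an unadjusted p under 0.05, so 0 of 5 is near the background. Their group ranges all overlapped, where 23.8% of all tested genes had ranges apart. In NMN against aged oocytes again 0 of 5 were called, against 0.218% of all genes, and in NMN against young 0 of 5, against 0.0327% (0 also at an unadjusted p under 0.05 in both, against 11% and 8.19% of all genes). Ranges were apart for 1 of 5 in the first, Atp2a2, and for 0 of 5 in the second, against 15.7% and 16.6% of all genes. Aged is the control of one of these comparisons and the test group of another, and young libraries are likewise shared.

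Itpr1, an IP3 receptor of the store, was at 3.49, 2.43 and 2.84 FPKM in young replicates 1 to 3. It was at 2.36, 4.04 and 2.18 in aged and 3.56, 3.43 and 2.98 in NMN replicates. The ranges of the 3 groups overlapped, with aged replicate 2 the highest of all. The aged and young groups differed by -0.06 ± 0.21 on the log2 scale (95% interval -0.52 to 0.40; limma adjusted p = 0.912), and by -0.24 without aged replicate 2. NMN and aged differed by 0.16 (-0.29 to 0.62), and by 0.36 (-0.07 to 0.79; adjusted p = 0.4) without that library. The difference was 0.11 for NMN against young (-0.35 to 0.56). Its relative Itpr2 was higher in each of the 9 libraries, with 13.2 to 37.3 FPKM against 2.18 to 4.04, and Itpr3 stayed at 0.0576 to 0.283.

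Atp2a2, the SERCA pump, was at 72.7, 40.03 and 44.5 FPKM in young, 46.96, 58.1 and 48.5 in aged and 94.15, 68.6 and 64.3 in NMN replicates 1 to 3. The NMN libraries lay above the aged ones without overlap, which 15.7% of all tested genes did in either direction, while young replicate 1 exceeded NMN replicates 2 and 3. NMN and aged differed by 0.50 ± 0.23 (95% interval -0.01 to 1.01; limma adjusted p = 0.465), and NMN and young by 0.50 ± 0.23 (-0.02 to 1.01; adjusted p = 0.622). Aged and young differed by -0.005 ± 0.23 (-0.52 to 0.51; adjusted p = 0.995), a value whose sign turned to 0.01 with FPKM as deposited and which was -0.07 without aged replicate 2. Without aged replicate 2 the NMN-to-aged difference was 0.58 (0.02 to 1.14; adjusted p = 0.317). Atp2a1, the SERCA gene of fast muscle, was at 0 to 0.0496 FPKM.

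Stim1, the store sensor, was at 0.0807, 0.238 and 0.175 FPKM in young, 0.0445, 0.314 and 0.214 in aged and 0.0344, 0.248 and 0.169 in NMN replicates 1 to 3. Replicate 1 of each group lay under the level of 3 reads on a 2 kb transcript. At this depth no comparison of Stim1 was made. Stim2, the other sensor of the family, was at 10.35 to 23.5 FPKM and exceeded Stim1 in 9 of 9 libraries.

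Orai1, the channel that Stim proteins open, was at 2.92, 2.03 and 2.13 FPKM in young replicates 1 to 3. Aged replicates held 0.931, 3.11 and 1.18 and NMN replicates 2.49, 1.07 and 1.61 FPKM. Aged replicate 2 was thus the highest of the 9 libraries and aged replicates 1 and 3 were among the 3 lowest. The aged group differed from the young by -0.39 ± 0.28 (95% interval -1.02 to 0.25; limma adjusted p = 0.511). Without aged replicate 2 the difference was -0.70 ± 0.24 (-1.23 to -0.17), with an adjusted p of 0.17. NMN against aged differed by 0.02 (-0.61 to 0.66) with all libraries and by 0.34 (-0.19 to 0.87) without aged replicate 2, and NMN against young by -0.36 (-0.998 to 0.27). Orai3 was at a similar level, 1.29 to 3.70 FPKM, and exceeded Orai1 in 7 of 9 libraries, whereas Orai2 reached at most 0.0691.

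Trpm7, the divalent cation channel with a kinase domain, was at 1.40, 2.10 and 1.40 FPKM in young, 1.71, 3.07 and 2.44 in aged and 2.09, 2.76 and 2.43 in NMN replicates 1 to 3. Young replicate 2 lay within the range of the aged libraries and just above NMN replicate 1. The aged group differed from the young by 0.35 ± 0.21 (95% interval -0.10 to 0.81; limma adjusted p = 0.404), and by 0.24 ± 0.21 without aged replicate 2. The NMN group differed from the young by 0.35 ± 0.21 (-0.11 to 0.81; adjusted p = 0.702). NMN and aged differed by -0.002 (-0.46 to 0.46), and by 0.12 (-0.35 to 0.60) without aged replicate 2. Trpm6, its closest relative, was at 0.469 to 2.83 FPKM and below Trpm7 in 6 of 9 libraries.

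Camk2g, the kinase that reads out calmodulin in the egg, was the steadiest of the higher genes. It was at 57.5, 59.9 and 64.6 FPKM in young, 60.7, 38.4 and 61.1 in aged and 53.3, 64.1 and 58.7 in NMN replicates 1 to 3. Only aged replicate 2 left the range of 53.3 to 64.6 FPKM. Aged and young differed by -0.23 ± 0.23 (95% interval -0.73 to 0.28; limma adjusted p = 0.644), and by 0.02 ± 0.16 (-0.34 to 0.38) without that library. NMN against aged gave 0.12 (-0.38 to 0.63), which turned to -0.11 without it, and NMN against young gave -0.10 (-0.61 to 0.40). The other genes of the kinase family were nearly absent, with at most 0.0155 FPKM for Camk2a, 0.0269 for Camk2b and 0.121 for Camk2d.

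**Figure D2:**
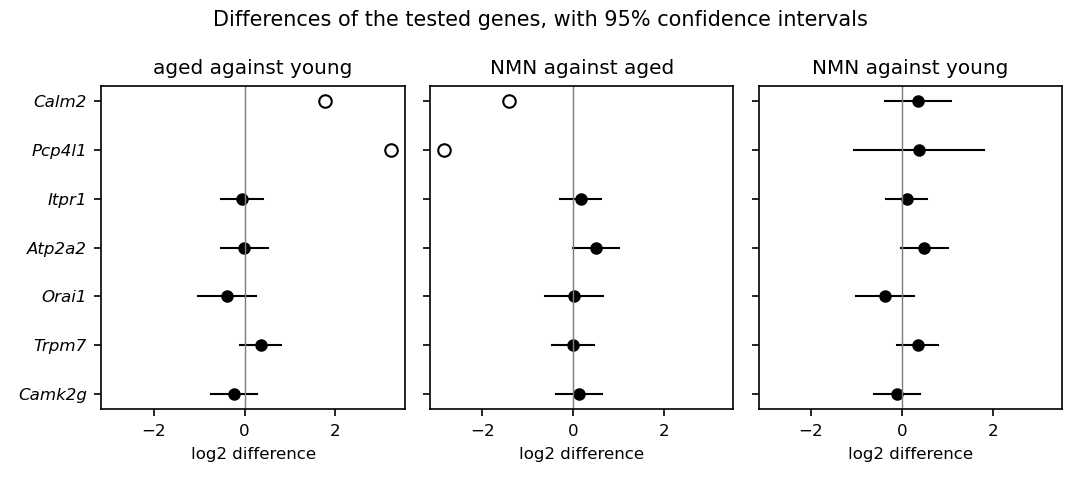
Log2 differences of the 7 tested genes on the log2(FPKM + 1) scale in the 3 comparisons. Filled points have 95% confidence intervals from limma, and open points (Calm2 and Pcp4l1 against or with the aged group) are values without a test. No interval of the 5 genes chosen by function excludes 0, and that of Atp2a2 in NMN against aged reaches from -0.01 to 1.01.

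Correlations across libraries were computed on the log2 scale, with all 9 libraries and, as an alternative chosen after seeing the data, with the 8 left without aged replicate 2. Calm2 and Pcp4l1 had a Pearson r of 0.83 (0.756 over 8), which their choice for high aged levels largely fixes. The r of Calm2 with Camk2g was -0.689 over 9 libraries and -0.007 over 8, so that it rested on aged replicate 2. Itpr1 had an r of 0.65 with Atp2a2 (0.806 over 8) and of 0.586 with Orai1 (0.458 over 8). Negative values of similar size also occurred. Camk2g had an r of -0.618 with Orai1 (-0.518 over 8), -0.616 with Itpr1 (-0.413 over 8) and -0.253 with Atp2a2 (-0.735 over 8). Pcp4l1 with Orai1 had -0.332 (-0.802 over 8). These are descriptions over points that share libraries and their depth. The genes named next were picked as the highest of many over few libraries, which gives high values in itself. Those most like Calm2 and Pcp4l1 are high in aged libraries by that choice, so their levels are no separate evidence of an age difference. Among 4251 other named genes of at least 5 FPKM, those most like Calm2 were Tcl1b5, Elobl, Paip2, Lamtor5 and Erp44 (r from 0.979 to 0.991, and 0.954 to 0.987 over 8 libraries). Paip2, which binds the poly(A)-binding protein, had for example 4.87, 5.36 and 5.74 FPKM in young replicates 1 to 3. It had 10.1, 25.4 and 13.8 in aged and 8.48, 6.73 and 7.18 FPKM in NMN replicates. Those most like Pcp4l1 were Slc25a26, Aass, Cnot8, Kantr and Gcc2 (r from 0.894 to 0.977, and 0.847 to 0.969 over 8). Slc25a26, the mitochondrial carrier of S-adenosylmethionine, had 18.96, 18.65 and 19.5 FPKM in young replicates 1 to 3. It had 20.45, 28.3 and 27.9 in aged and 17.6, 21.4 and 20.8 FPKM in NMN replicates, a far narrower range than Pcp4l1. Those most like Atp2a2 were Spindoc, Dusp7, Tbc1d22b, Pom121 and Unc5c (r from 0.962 to 0.969).

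The wider calcium pathway was followed through a list of 126 genes in 8 roles, the 9 genes included, of which 110 were in the table and 51 were tested. Leaving out Calm2 and Pcp4l1, 0 of 49 were called by limma in aged against young oocytes, where 2.2% of all genes were. At an unadjusted p under 0.05, 2 were higher and 3 lower, a smaller share than the 18.2% of all genes. The list's median log2 difference was -0.005, beside -0.01 over all tested genes. In NMN against aged, 0 of 49 were called, beside 0.218% of all genes (1 at an unadjusted p under 0.05, beside 11%), with a median of 0.022 beside -0.012, and in NMN against young 0 of 51, beside 0.0327% (2 at an unadjusted p under 0.05, beside 8.19%), with a median of 0.034 beside 0. Library ranges were apart for 8 of 49 genes (16.3%) in aged against young, where 23.8% of all genes were, and for 9 of 49 (18.4%) in NMN against aged, where 15.7% were.

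By role, in aged against young oocytes, the tested genes of IP3 receptors and IP3 production had a median of 0.14 (10 genes), the store pumps and lumen proteins 0.05 (10), store-operated entry -0.09 (4) and other entry channels 0.20 (4). Extrusion across the plasma membrane had -0.07 (2), mitochondrial uptake and release -0.15 (9) and the kinases, phosphatase and other readouts -0.20 (10). Values that follow are mean FPKM ± SD (n = 3) in young, aged and NMN libraries. Canx and Calr, chaperones of the store lumen, were at 82.0 ± 9.89, 73.7 ± 10.8 and 88.4 ± 11.1 and at 55.3 ± 12.3, 60.7 ± 21.7 and 58.7 ± 10.8. Plce1, a phospholipase C that makes IP3, was at 11.6 ± 1.18, 6.49 ± 1.62 and 9.46 ± 1.12, with aged libraries below all others. Saraf, which limits store-operated entry, was at 171 ± 10.7, 191 ± 45.1 and 196 ± 16.2. Mcu, the pore of the mitochondrial calcium uniporter, was at 144 ± 20.1, 116 ± 26.0 and 131 ± 15.6, and its inhibitory relative Mcub at 74.4 ± 8.96, 68.2 ± 13.2 and 82.7 ± 1.88. The plasma membrane pump Atp2b1 was at 25.7 ± 2.04, 26.7 ± 8.19 and 26.3 ± 3.03, and the exchanger Slc24a3 at 6.02 ± 1.06, 5.44 ± 1.01 and 8.77 ± 1.46. Among entry channels, the calcium channel subunit Cacna1d was at 0.68 ± 0.142, 1.23 ± 0.328 and 0.987 ± 0.137. Fbxo43 (Emi2), which holds the egg at metaphase and is marked for destruction through Camk2g, was at 161 ± 16.7, 145 ± 25.3 and 138 ± 21.7. Wee2, a kinase that inhibits the cell cycle kinase after activation, was at 269 ± 66.5, 237 ± 88.5 and 208 ± 61.1. None of these genes was called in any of the 3 comparisons (limma, lowest adjusted p of the list 0.113).

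**Figure D3:**
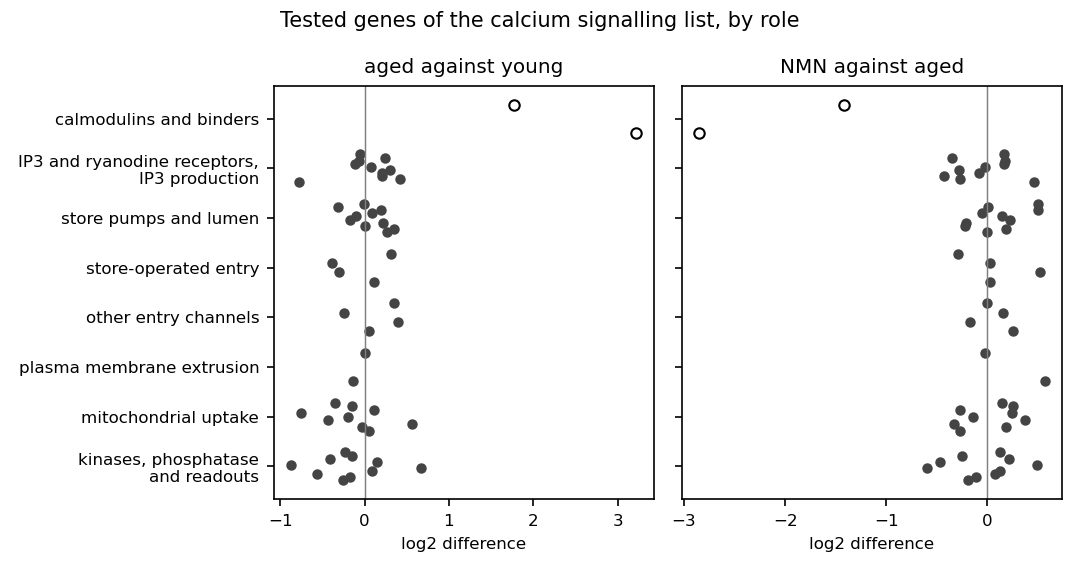
Log2 differences (log2(FPKM + 1) scale) of the 51 tested genes of the calcium list, 1 point per gene, by role, in the aged-young and NMN-aged comparisons. Open points are Calm2 and Pcp4l1, at 1.77 and 3.22 on the left, and the other 49 genes lie between -0.87 and 0.67 there.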

How the data were processed

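Messenger RNA of metaphase II oocytes was measured by Smart-seq2, in which cDNA is primed with oligo(dT) and amplified, per the labels' protocols, in 3 young, 3 aged and 3 NMN libraries, grouped by title. The authors deposited 1 table of FPKM for 22526 genes (the deposited name calls it a count matrix, but values are fractional). Bowtie2 2.2.5, RSEM and build mm9 are named in the submitters' processing notes. The annotation and strand handling are not given in the sources used here. Symbols came from GENCODE M21 for 99.83% of rows. Its exon coordinates gave the transcript lengths used for depth. Its exon and coding coordinates were used to cut the calmodulin coding sequences. Depth was read from 2659 genes with 1 transcript over 1500 nt, where 96.6 to 97.8% of values below 20 reads were whole within 0.02 reads.

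FPKM are printed as deposited. For tests they were divided by trimmed-mean factors (trimming 30% of ratios and 5% of levels). The 9175 genes that reached 1 FPKM in 3 or more libraries were tested, and limma 3.58.1 in R 4.3.3, with trend and robust moderation, was fitted to log2(FPKM + 1) of all 9 libraries without covariates. This scale understates changes of low genes. P-values were adjusted by Benjamini-Hochberg over all tested genes, with a threshold of 0.05. The fit was tested on simulated data. Alternatives were other pseudocounts, filters, scalings, variance models, library weights, a replicate block and each library left out.

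The members and lists were chosen with earlier results of these data known. One gene of the calcium list, and the planned sum over the calmodulin genes, are not reported here. All 9 genes are named, with the 2 most abundant tested genes of each role and the 5 genes of at least 5 FPKM most correlated with each tested gene. To check pairing, each library's deviation from its group mean was correlated with that of the same-numbered library, and a value over 0.1 in every pair counted as pairing. NMN with young libraries met this (0.495, 0.119 and 0.143). Aged with young (-0.34, -0.266 and 0.313) did not, nor did NMN with aged (-0.371, -0.358 and 0.201). Transcript copies were sought with BLAST 2.17.0 at 90% identity over at least 150 nt.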

Additional observations from a re-analysis of the deposited data

How the results depend on the processing

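Across 19 alternatives none of the 5 tested genes chosen by function was called in any comparison where it passed the filter. At a minimum of 10 FPKM, Itpr1, Orai1 and Trpm7 fell below it. Calm2 and Pcp4l1 were tested in NMN against young only, again without a call, and their contrasts with the aged group stayed untested throughout. Of 390 recomputed log2 differences 24 changed sign, all of them in contrasts without a call. With aged against young, Atp2a2 gave 0.0101 as deposited, 0.00598 with median-of-ratios factors and 0.0919 with library quality weights. Leaving out 1 library gave -0.161 to 0.238 for Atp2a2, -0.242 to 0.0631 for Itpr1 and -0.377 to 0.0215 for Camk2g. With NMN against aged, Trpm7 gave 0.000449 at a pseudocount of 0.1, 0.0229 as deposited and 0.0522 with quality weights, Orai1 gave -0.000103 at a pseudocount of 5, and Camk2g gave -0.0853 with quality weights. Leaving out 1 library gave -0.125 to 0.123 for Trpm7, -0.161 to 0.342 for Orai1 and -0.112 to 0.274 for Camk2g. Pcp4l1 in NMN against young ranged from -0.0385 (without NMN replicate 2) to 1.11. Calm2 in aged against young stayed between 1.36 and 2.11, and Pcp4l1 between 2.2 (pseudocount 5) and 3.84. The cause of each change was not tested.

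The calcium list had 0 calls in every alternative except library quality weights. There 3 of the 49 genes other than Calm2 and Pcp4l1 were called in aged against young: Rcan1, Plce1 and Vdac1. In that setting 881 of all 9175 tested genes were called, so nothing particular to the list is read from this. Counts over all genes moved more. Aged against young had 202 calls, 28 with no filter, 105 at a minimum of 10 FPKM, 130 with only the 2 groups compared, 881 with quality weights and 62 with the replicate block. Without 1 library it had 26 to 211, with 40, 26 and 29 without young replicates 1 to 3, 30 without aged replicate 3 and 104 without NMN replicate 3. NMN against aged had 20 calls, 13 and 12 at pseudocounts of 0.1 and 5, 9 with no filter, 4 at 10 FPKM, 7 with only the 2 groups and 147 with quality weights. Without 1 library it had 5 to 26, with 8, 5 and 11 without aged replicates 1 and 3 and NMN replicate 1. NMN against young had 3 calls, 5 and 1 at pseudocounts of 0.1 and 5, 1 with no filter, 1 at 10 FPKM, 16 with only the 2 groups, 7 without trend and robust moderation and 71 with quality weights. Without 1 library it had 1 to 14, with 14 without aged replicate 2, 13 without NMN replicate 3, 3 without NMN replicate 2 and 1 with any other library left out. The replicate block, fitted over all libraries with the aged ones included, gave 1 call in NMN against young. It changed no call of the genes described. A block over NMN and young libraries alone was not fitted. For low genes such as Stim1 and Calm3 depth limits any comparison.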

Other observations

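Several genes of the calcium list without a call had library ranges apart, and they were chosen here after their values were seen. In aged against young oocytes these were Plcg2, Tmco1, Cacna1d and Vdac1 above and Plce1, Micu2, Ppp3ca and Rcan1 below. Rcan1, an inhibitor of the calmodulin-dependent phosphatase calcineurin, was at 18.9, 14.04 and 16.3 FPKM in young, 5.16, 12.3 and 9.70 in aged and 11.8, 16.4 and 10.7 in NMN replicates 1 to 3. Its log2 difference was -0.87 ± 0.27 (SE; limma adjusted p = 0.137). Plce1, a phospholipase C that makes IP3, was at 10.6, 11.2 and 12.9 in young and 8.02, 4.80 and 6.66 FPKM in aged replicates (-0.78 ± 0.23, adjusted p = 0.114), and at 8.52, 10.7 and 9.17 in NMN replicates. Vdac1, a channel of the outer mitochondrial membrane, was at 6.19, 6.80 and 6.98 in young, 9.43, 12.5 and 9.69 in aged and 8.67, 7.80 and 8.63 FPKM in NMN replicates (aged against young 0.57 ± 0.17, adjusted p = 0.113). These 3 passed the threshold with library quality weights alone among the alternatives run, with limma adjusted p of 0.0326, 0.0283 and 0.0496. In that setting 881 of all 9175 tested genes passed it. Micu2, a gatekeeper of the mitochondrial uniporter, was at 5.76, 4.98 and 6.97 in young and 2.36, 3.73 and 3.37 FPKM in aged replicates (adjusted p = 0.189).

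In NMN against aged oocytes, Slc24a3, a sodium-calcium-potassium exchanger, had ranges apart, at 9.83, 9.38 and 7.10 in NMN and 5.74, 4.31 and 6.26 FPKM in aged replicates 1 to 3 (log2 difference 0.57 ± 0.22, adjusted p = 0.385).

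For other genes of the set, the genes most alike in pattern were picked in the same way. Picking the highest of 4251 genes over 9 libraries gives high values in itself, so no link is read from them. Those most like Itpr1 were Jak2, Suz12, Arfgef1, Ndfip2 and Ythdc1 (r from 0.961 to 0.986), and those most like Camk2g were Dcp1a, Nadk, Siae, Tmem39a and Togaram1 (r from 0.979 to 0.987, and 0.892 to 0.974 without aged replicate 2). Dcp1a, a factor of mRNA decapping, was at 149.7 FPKM in aged replicate 2 and at 211.4 to 286.3 in the others, the same library in which Camk2g was lowest. Those most like Orai1 were Nkiras1, Gpat4, Nap1l1, Dpysl3 and Gch1 (r from 0.898 to 0.96), and those most like Trpm7 were Smpd1, March7, Il1r1, Steap2 and Skap2 (r from 0.811 to 0.857).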
